A study of Mus musculus with 3 samples.

Results

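Ymac-1, a mouse liver cancer cell line, was set against normal mouse liver to describe which liver transcripts the cultured line retained and which transcripts it carried at a higher level. The line was grown out of a liver tumor of an aged Gnmt-/- mouse, in which the gene for glycine N-methyltransferase is disrupted, and it was subcultured in DMEM through a long series of passages. The normal liver was tissue of a female wild type mouse, with an age not given in the sources used here. Total RNA of each was measured on 1 Mouse Whole Genome OneArray in the single colour Cy5, so the comparison took 2 of the 3 arrays of the series. The third array, of an HCC from a female Gnmt-/- mouse, is used only where it is named. With 1 array per condition no difference has a replicate check, no P value was computed, and how few the arrays are limits how precise any value can be. Ymac-1 is 1 line in culture and the liver sample is a whole tissue, so genotype, tumor origin, culture and cell composition cannot be told apart.

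The adult liver makes most plasma proteins, exports lipoproteins, clears drugs with cytochrome P450 enzymes and conjugating enzymes, makes bile acids and runs the urea cycle and gluconeogenesis. Nearly all of this is done by hepatocytes, whose gene program is held by a set of transcription factors that act on one another, among them HNF4A, the FOXA factors and C/EBPα. Sarcomatoid HCC, the tumor type the study assigns to Ymac-1, is a liver cancer with spindle-shaped cells that carry keratins and the mesenchymal filament protein vimentin together.

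For each array, 26423 probes were deposited as linear intensities from which the authors had subtracted a background, and 5.11% of them were at or below 0 in Ymac-1 cells and 5.59% in normal liver. Intensities below 50 were therefore set to 50, called the floor here, before the log2 step. The probes with 1 gene symbol numbered 21876 and gave 19084 genes, each read from whichever of its probes was brightest on average over the 3 arrays on the log2 scale. All differences are log2 Ymac-1 minus normal liver, genes whose difference was 1 or more in size were called higher or lower, and where the dimmer reading did not exceed the floor the fold is a bound, written as "at least". The Ymac-1 array had 43.2% of its probes above the floor and an upper quartile of 305, against 38.6% and 193 for the liver array. The sources used here give no scaling between the arrays, so the main counts are given as deposited and after quantile normalization.

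Of the 19084 genes, 4447 were higher in Ymac-1 cells than in normal liver (23.3%) and 1795 were lower (9.41%). After quantile normalization, which forces the same distribution on every array, 3075 were higher (16.1%) and 2662 were lower (13.9%). Higher genes thus made up 71.2% of the calls as deposited, 53.6% after quantile normalization and 46.9% when each array was centred on the median of its positive probes. The 2 sets of lower genes were nested, since all 1795 genes called lower as deposited were also lower after quantile normalization, while 3061 genes were higher under both scalings. Among 7699 genes above the floor on both arrays the median difference was 0.72 as deposited, with quartiles of -0.26 and 1.67, and 0.06 after quantile normalization. Small differences therefore had no settled direction. Among the 10876 genes above the floor on at least 1 of the 2 arrays, 40.9% were higher and 16.5% were lower as deposited.

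Large differences were unequal in the 2 directions. A difference of 2 or more in size was read for 2171 higher and 991 lower genes, and one of 4 or more for 396 higher and 384 lower genes. Beyond 6 there were 62 higher and 182 lower genes, and beyond 8 there were 7 higher and 49 lower genes. The scatter of both arrays shows many of the liver function genes along its bottom edge. Of 304 genes picked for naming by fixed rules, 229 had a difference of 1 or more in size. Of these, 218 kept the same call under each of the 4 other scalings tried. Several of the rules take the largest differences, so this share does not carry over to all genes. Over all genes, 68.8% of the higher calls as deposited were also higher after quantile normalization.

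**Figure D1:**
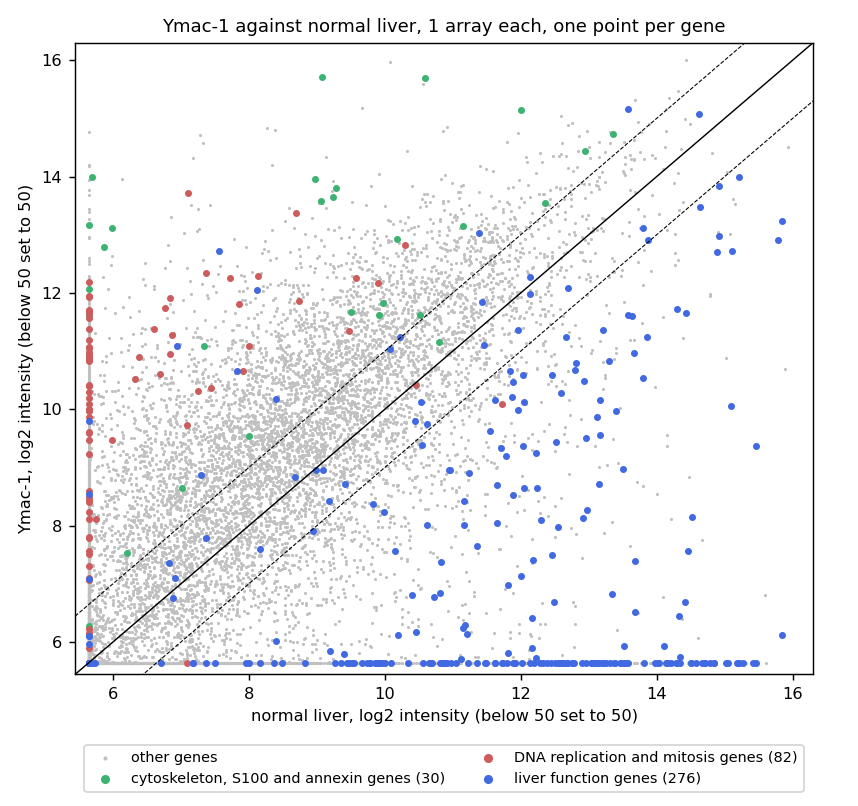
Log2 intensity of 19084 genes in Ymac-1 cells (vertical axis) and in normal liver (horizontal axis), 1 array each, with readings below 50 set to 50. The solid line marks equal readings and the dashed lines a log2 difference of 1 in either direction. Blue points are 276 genes of the liver function lists, red points DNA replication and mitosis genes, and green points 30 cytoskeleton, S100 and annexin genes. The blue points lie mostly below the lower dashed line or on the bottom edge, and the red points mostly at the left edge.

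**Figure D2:**
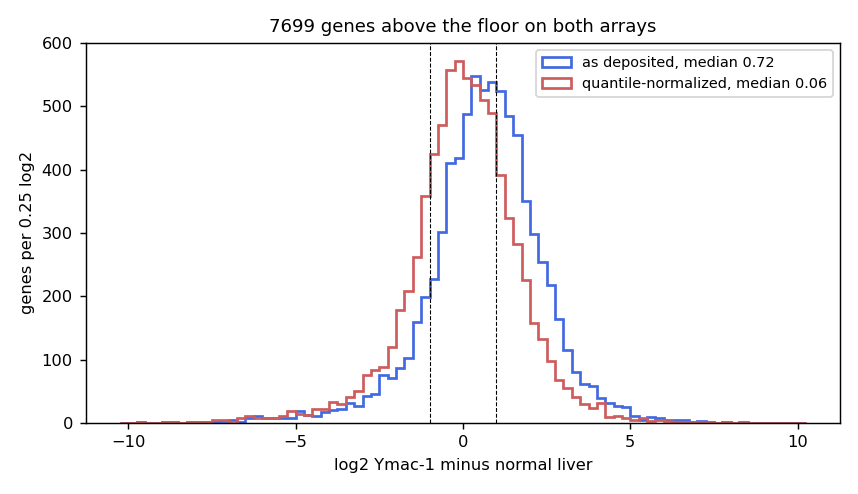
Number of genes per bin of log2 Ymac-1 minus normal liver for the 7699 genes above the floor on both arrays, as deposited (blue) and after quantile normalization (red). Quantile normalization moves the whole distribution to the left, and its median falls to 0.06, against 0.72 as deposited.

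Markers of hepatocytes were read first. Of 23 hepatocyte markers with a probe, all 23 were lower in Ymac-1 cells (9.41% of all genes were lower), with a median difference of -7.55 against 0 over all genes, and 15 of them were at or under the floor. Albumin, the most abundant plasma protein, read 48.3 in Ymac-1 cells and 33715 in normal liver, which is at least 674-fold lower. By PCR, the paper found albumin RNA in the line above spleen and brain and far below normal liver. Its proteomics found albumin and other plasma proteins in the culture medium. A reading at the floor does not show that the transcript is absent. Transthyretin (Ttr), a carrier of thyroid hormone, read 46.1 in Ymac-1 cells and 43708 in normal liver (at least 874-fold lower). The markers with the smallest differences were Trf and Rbp4, which carry iron and retinol in plasma, and Hnf4a, a transcription factor. In all, 8 markers were above the floor in the line, Trf, Rbp4 and Hnf4a among them. The summed intensity of the 23 markers was 34932.5 in Ymac-1 cells and 475602 in normal liver.

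Markers of other liver cell types were read from lists in the same way. Of 17 markers of Kupffer cells and macrophages, 14 were lower and 14 were at the floor in Ymac-1 cells, and their summed intensity was 3518 in Ymac-1 cells against 11268 in normal liver. C1qa, a complement subunit made by macrophages, read 8.67 in Ymac-1 cells and 2995 in normal liver, and Cd5l, a secreted macrophage protein, read 1.40 in Ymac-1 cells and 2365 in normal liver. Among 17 liver endothelial markers, 12 were lower and 0 higher, and the summed intensity was 1109 in Ymac-1 cells and 12603 in normal liver. Of 18 stellate cell and fibroblast markers, 8 were lower, 0 were higher and 16 were at the floor in Ymac-1 cells, with a summed intensity of 1556 in Ymac-1 cells and 21988 in normal liver, and decorin (Dcn), a matrix proteoglycan, read 90.7 in Ymac-1 cells and 13481 in normal liver. Lymphocyte, neutrophil and erythroid markers held 0 higher genes in Ymac-1 cells and 2 of 14, 1 of 11 and 3 of 6 lower ones, where 9.41% of all genes were lower. In normal liver 9, 8 and 3 of these markers were themselves at the floor. The macrophage, endothelial and stellate lists thus had lower summed readings in the line than in the liver tissue, and in bulk RNA fewer cells of a type and less RNA per cell cannot be told apart. Among the macrophage markers Cd68 and Csf1r, at 247 and 546 in Ymac-1 cells against 160 and 469 in normal liver, were within the threshold. Cd14, a receptor for bacterial lipopolysaccharide, was the higher marker, at 2558 in Ymac-1 cells against 147 in normal liver (17.4-fold higher).

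Some bile duct markers went the other way. Of 11 with a probe, 5 (Krt19, Krt7, Cdh6, Sox9 and Pkhd1) were higher in Ymac-1 cells, where 23.3% of all genes were higher. Another 6 were within the threshold and 0 were lower. The median difference was 0.21, or 0 after quantile normalization, and Cftr, Cldn4, Muc1 and Sctr were at the floor on both arrays. The summed intensity of the list was 15926 in Ymac-1 cells and 436 in normal liver, with Krt19 and Krt7 the brightest members in the line. Krt19 and Krt7, keratins of the biliary epithelium, read 7891 and 6382 in Ymac-1 cells, against 13.1 and 63.4 in normal liver. Cdh6, a cadherin, read 535 in Ymac-1 cells and -0.105 in normal liver. Pkhd1, which encodes a protein of the primary cilium of bile duct cells, read 559.8 in Ymac-1 cells and 168 in normal liver, and its difference of 1.73 fell below the threshold after quantile normalization (0.98). Epcam, an adhesion protein of biliary and progenitor cells, was at the floor in Ymac-1 cells (0.541) and just above it in normal liver (66.5).

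Retention was then counted among 2176 genes that read 1000 or more in normal liver. The liver reading chose these genes and also enters the difference, so the counts are a description. A gene was called kept if it was less than 2-fold lower in Ymac-1 cells, or higher, reduced if it was lower but above the floor, and at the floor otherwise. Of the 2176 genes, 1408 were kept (64.7%), 529 were reduced (24.3%) and 239 were at the floor (11%). The share kept declined with the liver reading, being 76.0% of 960 genes between 1000 and 2000, 48.9% of 272 genes between 5000 and 10000 and 15.5% of 71 genes at 20000 or more. In the brightest of these classes, 11 genes were kept, 35 were reduced and 25 were at the floor, with a median difference of -6.09. The same class had a median HCC minus normal liver difference of 0.17 on the third array, a value that shares the liver array.

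**Figure D3:**
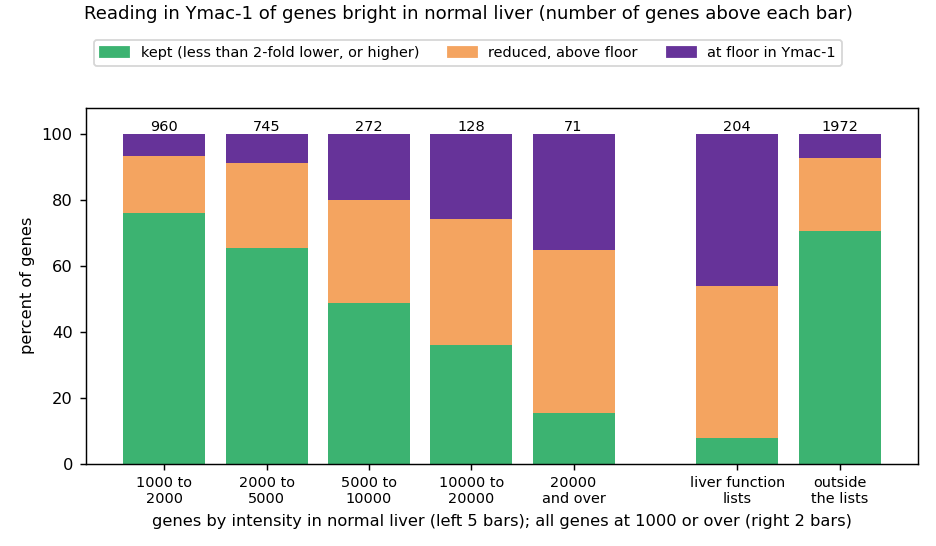
Percent of genes kept (green), reduced (orange) and at the floor (purple) in Ymac-1 cells, among 2176 genes that read 1000 or more in normal liver. The left 5 bars split these genes by their intensity in normal liver and the right bars split them into 204 genes of the liver function lists and 1972 other genes, with the number of genes above each bar. The green share falls to 15.5% in the class from 20000, and it is 7.84% within the liver function lists and 70.6% outside them.

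The share kept was low within the liver function lists. Of their 204 genes bright in liver, 16 were kept (7.84%), 94 were reduced and 94 were at the floor, with a median difference of -5.23, or -5.64 after quantile normalization. Outside these lists 1392 of 1972 genes were kept (70.6%) and 145 were at the floor, and the median was 0.11 as deposited and -0.47 after quantile normalization. The HCC array, set against the same liver array, had 17 of the 204 genes lower and 1 at the floor, where 0.749% of all genes were lower on that array and 52 of the 1972 bright genes outside the lists were. Genes of the liver function lists supplied 1.96% of the summed positive signal of all genes in Ymac-1 cells and 19.5% in normal liver. The 50 genes brightest in normal liver, whatever their function, held 46 lower genes in Ymac-1 cells and 20 at the floor, with a median difference of -6.23. The liver reading chose these genes and also enters the difference, so the count is a description. Chosen instead by the Ymac-1 reading, the 50 brightest genes of the line held 40 higher and 1 lower, with a median difference of 1.58. Rhoa, among those at the floor, had another probe that gave 3.01.

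Plasma carrier proteins and apolipoproteins were the lists with the lowest medians after the hepatocyte markers. All 23 plasma carriers with a probe were lower (9.41% of all genes were lower), with a median of -6.91 and 12 at the floor in Ymac-1 cells. Fetuin-A (Ahsg), an inhibitor of mineral deposition, read 6.81 in Ymac-1 cells and 29315 in normal liver. Rbp4 and Trf marked the upper end of this list. Rbp4 read 16255 in Ymac-1 cells and 37809 in normal liver (-1.22), with 3 probes that ran between -2.38 and -0.63, and Trf read 14671 in Ymac-1 cells and 31044 in normal liver (-1.08). Both transcripts thus stayed among the bright ones of the line, 2.33-fold and 2.12-fold below liver. Ceruloplasmin (Cp), the copper carrier, was also readable at 1184 in Ymac-1 cells against 3729 in normal liver, although its other probe gave a difference of 0.20.

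Of 18 genes for apolipoproteins and lipoprotein export, 16 were lower, where 9.41% of all genes were lower. At the floor were 10 of them, and the median was -7.13. Apoa2, a protein of high-density lipoprotein, had the lowest difference of all genes above the floor on both arrays, with 69.8 in Ymac-1 cells and 58554 in normal liver (-9.71, 839-fold lower). Apoa1, the main protein of the same particle, read 13.9 in Ymac-1 cells and 26868 in normal liver, and Apoc1, an inhibitor of lipid exchange, read 16.9 in Ymac-1 cells and 44939 in normal liver. Pon1, an esterase carried on high-density lipoprotein, had the brightest liver reading of any gene at the floor in Ymac-1 cells, with 30.1 in Ymac-1 cells and 49673 in normal liver (at least 993-fold lower). Apob, the structural protein of very-low-density lipoprotein, was reduced to 2414 in Ymac-1 cells, against 14863 in normal liver, and was not at the floor. Scarb1, the receptor for high-density lipoprotein, was kept at 855 in Ymac-1 cells against 1577 in normal liver as deposited (-0.88) but passed the threshold as lower after quantile normalization (-1.55). The list as a whole supplied 0.0270% of the signal in Ymac-1 cells and 2.40% in normal liver.

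Coagulation and complement genes followed the same order. Of 25 coagulation genes, 21 were lower (9.41% of all genes were lower), 19 were at the floor and the median was -6.37. Prothrombin (F2) read 12.6 in Ymac-1 cells and 24354 in normal liver, antithrombin (Serpinc1) read -0.692 in Ymac-1 cells and 28333 in normal liver, and plasminogen (Plg) read 2.70 in Ymac-1 cells and 37147 in normal liver. None of these 3 hepatocyte products was readable in the line. Protein S (Pros1), a cofactor that limits clotting, was kept as deposited at 1114 in Ymac-1 cells against 1487 in normal liver but was lower after quantile normalization (-1.10), and F3, tissue factor, which starts clotting outside hepatocytes, was 15.3-fold higher at 4264 in Ymac-1 cells against 278 in normal liver. Of 19 complement components, 16 were lower, with a median of -4.20. C8g, a subunit of the membrane attack complex, read 61.0 in Ymac-1 cells and 11735 in normal liver, and Mbl2, a lectin that starts one complement route, read 21.6 in Ymac-1 cells and 23272 in normal liver. Cd59a, a membrane inhibitor of the attack complex, read 494 in Ymac-1 cells and 1963 in normal liver and was among the members with the smallest loss.

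Acute-phase proteins, which hepatocytes secrete in inflammation, were split. Of 16 members, 12 were lower with a median of -3.62 over the list, where 9.41% of all genes were lower. Haptoglobin (Hp) and hemopexin (Hpx), which bind free hemoglobin and heme, read 87.2 and 189 in Ymac-1 cells, against 20624 and 22476 in normal liver. C-reactive protein (Crp) read 23.4 in Ymac-1 cells and 9461 in normal liver. Metallothioneins, small metal-binding proteins, behaved differently. Mt1 read 34538 in Ymac-1 cells and 25176 in normal liver and Mt2 read 4934 in Ymac-1 cells and 4513 in normal liver, differences whose sign turned under other scalings, such as -0.37 for Mt1 and -0.70 for Mt2 after centring on the median. Saa3, a serum amyloid made outside the liver as well, was the member higher in the line, at 373 in Ymac-1 cells against 1.90 in normal liver (at least 7.46-fold higher).

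The enzymes of drug clearance were unequal between classes. Of 24 cytochrome P450 genes, 20 were lower (9.41% of all genes were lower) and 18 were at the floor in Ymac-1 cells, with a median of -6.17. Cyp2e1, which oxidizes ethanol and small solvents, read 17.7 in Ymac-1 cells and 33194 in normal liver, Cyp4a14, a fatty acid hydroxylase, read 11.1 in Ymac-1 cells and 39472 in normal liver, and Cyp2c29 read 45.6 in Ymac-1 cells and 18297 in normal liver. These families hold closely similar copies, and how specific each probe is was not tested. The one member that was higher was Cyp1b1, a P450 best known outside the liver, at 890.5 in Ymac-1 cells against 17.8 in normal liver (at least 17.8-fold higher). Conjugation enzymes had a median of -1.90, with 19 of 30 lower and 5 higher, or 2 higher after centring on the median. Since 23.3% of all genes were higher as deposited, the share of higher members was below the background. Sult1a1, a sulfotransferase, and Ugt2b1, a glucuronosyltransferase, were at the floor with 23.1 and 28.8 in Ymac-1 cells, against 20030.1 and 8916 in normal liver. Among the glutathione transferases Gstk1, the mitochondrial and peroxisomal form, was at the floor (20.4 in Ymac-1 cells against 7947 in normal liver), Gsta3 was reduced (8070.1 in Ymac-1 cells against 31050.5 in normal liver), and Gsto1 and Gstp1 were higher in the line. Gsto1 read 36592 in Ymac-1 cells and 12182 in normal liver (1.59), and Gstp1 read 8398 in Ymac-1 cells and 2668 in normal liver (1.65). The calls of these last genes held after quantile normalization (1.55 and 1.28) and were lost on centring to the median (0.76 and 0.83).

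Bile acid synthesis and hepatic transport were low. Of 14 bile acid synthesis genes, 13 were lower and 0 were higher, with a median of -3.67. Cyp8b1, which sets the share of cholic acid, read 16.5 in Ymac-1 cells and 11715 in normal liver, and Cyp27a1, which oxidizes the sterol side chain, read 7.35 in Ymac-1 cells and 2614 in normal liver. Hsd3b7, a dehydrogenase of the sterol ring, was the brightest reduced member at 6658 in Ymac-1 cells against 30313 in normal liver (-2.19). Of 20 transporters, 13 were lower and 2 were higher. For both lists the shares over all genes were 9.41% lower and 23.3% higher, so higher members were fewer than the background share. The uptake carrier Slco1b2 read 7.43 in Ymac-1 cells and 37856 in normal liver, the bile salt export pump Abcb11 read 9.83 in Ymac-1 cells and 6218 in normal liver, and the phospholipid flippase Abcb4 read 7.50 in Ymac-1 cells and 23245 in normal liver. All 3 were thus at the floor, whereas the export pumps Abcc4 and Abcg2 were higher, with 2182 and 2425 in Ymac-1 cells, against 123 and 1191 in normal liver. The difference of Abcg2 was 1.03 as deposited and 0.34 after quantile normalization, within the threshold.

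Amino acid and nitrogen metabolism was low at the steps that hepatocytes carry. Of 14 urea cycle and nitrogen genes, 11 were lower with a median of -2.67, where 9.41% of all genes were lower and 23.3% higher. The first enzyme of the cycle, Cps1, read 4.49 in Ymac-1 cells and 7067 in normal liver, and the last, Arg1, read 16.8 in Ymac-1 cells and 16824 in normal liver. Asl, argininosuccinate lyase, was the brighter remnant at 1549 in Ymac-1 cells against 4179.9 in normal liver (-1.43). The aspartate aminotransferases, which many cell types use, were kept, with 3679 (Got1) and 8909.7 (Got2) in Ymac-1 cells, against 2750 and 14304 in normal liver, although Got2 was lower after centring on the median (-1.51). Of 31 genes of amino acid breakdown, 26 were lower and 0 were higher, with a median of -3.70. Tdo2, the tryptophan dioxygenase of liver, read 4.10 in Ymac-1 cells and 9341 in normal liver, Ftcd, of histidine breakdown, read 27.7 in Ymac-1 cells and 18981 in normal liver, and Uroc1, of the same route, read 6.89 in Ymac-1 cells and 10726 in normal liver. Dbt and Pcbd1, of branched-chain and aromatic amino acid breakdown, were kept as deposited (-0.66 and -0.61) and were lower after quantile normalization (-1.34 and -1.04).

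The methionine cycle is the route in which Gnmt acts, using S-adenosylmethionine to methylate glycine. Gnmt read 56.1 in Ymac-1 cells and 3583 in normal liver (-6.00, 63.9-fold lower), a Ymac-1 reading just above the floor. The probe's position relative to the disrupted part is not stated in the sources used here, so this reading does not check the genotype. Other members were as low. Mat1a, which makes S-adenosylmethionine in adult liver, read 46.1 in Ymac-1 cells and 26895 in normal liver, and Bhmt, which remethylates homocysteine, read 2.70 in Ymac-1 cells and 6621 in normal liver. In all, 11 of 16 members were lower (9.41% of all genes were lower) with a median of -2.97, and Gnmt was 1 of these 11. Mat2b, the regulatory subunit of the form of the synthetase found outside the adult liver, was higher, at 1159 in Ymac-1 cells against 336 in normal liver (1.79), and Cth, which makes cysteine, was kept as deposited at 2623 in Ymac-1 cells against 3974 in normal liver and lower after quantile normalization (-1.14).

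Carbohydrate and fatty acid genes of the liver were also lower. Of 14 genes of gluconeogenesis and liver glycolysis isozymes, 11 were lower and 0 were higher, with a median of -3.53. The shares over all genes were 9.41% lower and 23.3% higher. Pck1, the control point of gluconeogenesis, read 3.63 in Ymac-1 cells and 29267 in normal liver, Fbp1, a later step, read 10.8 in Ymac-1 cells and 14388 in normal liver, and Gckr, the regulator of glucokinase, read 1.86 in Ymac-1 cells and 6182 in normal liver. Slc2a2, the glucose transporter of hepatocytes, had the smallest loss among the lower members, at 672 in Ymac-1 cells against 1499.9 in normal liver (-1.16). Of 22 genes of fatty acid oxidation and ketone bodies, 18 were lower with a median of -2.64, but only 4 were at the floor. Fabp1, the fatty acid binding protein of liver, read 2.09 in Ymac-1 cells and 38065 in normal liver, and Ehhadh, of peroxisomal oxidation, read 31.8 in Ymac-1 cells and 8346 in normal liver. Several mitochondrial enzymes were reduced and still bright. Acaa2 read 9620.2 in Ymac-1 cells and 58483 in normal liver, Hadh read 11339 in Ymac-1 cells and 25414 in normal liver, and Acadm, the medium-chain dehydrogenase, read 3400.1 in Ymac-1 cells and 20127 in normal liver. Ketone body genes divided by direction of the route, since Bdh1, which makes 3-hydroxybutyrate, read 7.19 in Ymac-1 cells and 3162 in normal liver, and Oxct1, which uses ketone bodies and is low in hepatocytes, read 6722 in Ymac-1 cells and 189 in normal liver (35.5-fold higher).

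The 16 kept genes of the liver function lists were Abcg2, Acadl, Aldh7a1, Cth, Dbt, Got1, Got2, Gsto1, Gstp1, Mgst3, Mt1, Mt2, Nnmt, Pcbd1, Pros1 and Scarb1. Of these, 3 were higher in Ymac-1 cells and 10 stayed above a difference of -1 after quantile normalization, and 8 did so after centring on the median. Acadl, the long-chain acyl-CoA dehydrogenase, read 7689.9 in Ymac-1 cells and 14976 in normal liver, at the edge of the threshold (-0.96 as deposited, -1.10 after quantile normalization). Aldh7a1, of lysine breakdown, read 4056 in Ymac-1 cells and 4487 in normal liver, and Nnmt, which methylates nicotinamide, read 2204 in Ymac-1 cells and 2804 in normal liver. The kept genes included both metallothioneins, 3 glutathione transferases (Gsto1, Gstp1 and Mgst3) and several mitochondrial enzymes. Of the 18 P450 enzymes and 23 plasma carriers bright in liver, 0 were kept, where 7.84% of all 204 genes of these lists were kept. At that share few of either would be kept, so the counts of 0 do not set them apart. The 50 brightest genes of each array had 4 in common, B2m, Cd81, Mt1 and Selenop. B2m, the light chain of class I molecules, read 21735 in Ymac-1 cells and 28658 in normal liver, and Cd81, a membrane tetraspanin, read 30598 in Ymac-1 cells and 23082 in normal liver. Selenop, a selenium carrier that the liver secretes, read 23348 in Ymac-1 cells and 62336 in normal liver and was lower (-1.42) while still among the brightest readings of the line.

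The transcription factors of the hepatocyte program were not lost together. Of 27 with a probe, 18 were lower, 7 were within the threshold and 2 were higher as deposited, with a median of -2.60 and 11 at the floor in Ymac-1 cells, and after quantile normalization 20 were lower and 0 were higher. The shares over all genes were 9.41% lower and 23.3% higher as deposited, and 13.9% and 16.1% after quantile normalization. Hnf4a, the nuclear receptor at the centre of the program, was reduced and readable at 752 in Ymac-1 cells against 3824 in normal liver (-2.35, 5.09-fold lower). The 3 FOXA factors, which open liver chromatin, had different readings. Foxa1 read 369 in Ymac-1 cells and 222 in normal liver and Foxa2 read 1102 in Ymac-1 cells and 376 in normal liver, neither of them lower, while Foxa3 read 103 in Ymac-1 cells and 6984 in normal liver (-6.08). The difference of Foxa2 was 1.55 as deposited and 0.77 after quantile normalization, so its call as higher depended on the scaling. The 2 C/EBP factors were likewise unlike each other. Cebpa, the factor of quiescent hepatocytes, read 53.3 in Ymac-1 cells and 2555 in normal liver (-5.58), and Cebpb, which is induced in inflammation and regeneration, read 4595 in Ymac-1 cells and 1549.8 in normal liver (1.57, or 0.97 after quantile normalization).

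The nuclear receptors of bile acid, drug and lipid sensing were low. Nr1h4, the bile acid receptor FXR, read 358 in Ymac-1 cells and 5199 in normal liver, Nr1i3, the drug sensor CAR, read 5.10 in Ymac-1 cells and 2003 in normal liver, and Nr1i2, the drug sensor PXR, read 22.7 in Ymac-1 cells and 529 in normal liver. Ppara, which drives fatty acid oxidation, read 6.49 in Ymac-1 cells and 2665 in normal liver, and Rxra, the shared partner of these receptors, was reduced but readable at 462 in Ymac-1 cells against 4147 in normal liver. Nr0b2, the repressor SHP, and Nr5a2, the receptor LRH-1, were at the floor with 7.19 and 6.81 in Ymac-1 cells, against 396 and 758 in normal liver. Creb3l3, an activator bound to the endoplasmic reticulum, had the lowest difference of the list, with 23.0 in Ymac-1 cells and 6347 in normal liver (at least 127-fold lower), and Mlxipl, the glucose-responsive factor ChREBP, read 18.6 in Ymac-1 cells and 2403 in normal liver. The endodermal factors had small differences as deposited, but Gata4 (-1.14) and Hhex (-1.36) were called lower after quantile normalization. Gata6 read 696 in Ymac-1 cells and 461 in normal liver, Gata4 read 106 in Ymac-1 cells and 162 in normal liver, and Hhex read 438 in Ymac-1 cells and 697 in normal liver. Xbp1, of the unfolded protein response, was kept among bright readings at 11032 in Ymac-1 cells against 20563 in normal liver, and Onecut1 and Srebf1 were at the floor on both arrays. Prox1 and Tbx3, further factors of the hepatocyte program, were low, with 12.2 and 70.9 in Ymac-1 cells, against 302 and 3129 in normal liver. Atf5, a stress-responsive factor abundant in liver, was reduced and still bright at 8504 in Ymac-1 cells against 30669 in normal liver, and Nr1h3, the sterol sensor LXRα, read 90.1 in Ymac-1 cells and 2426 in normal liver. Nr2f2 and Onecut2 were lower as well, with 159.8 and 6.65 in Ymac-1 cells, against 465 and 168 in normal liver.

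**Figure D4:**
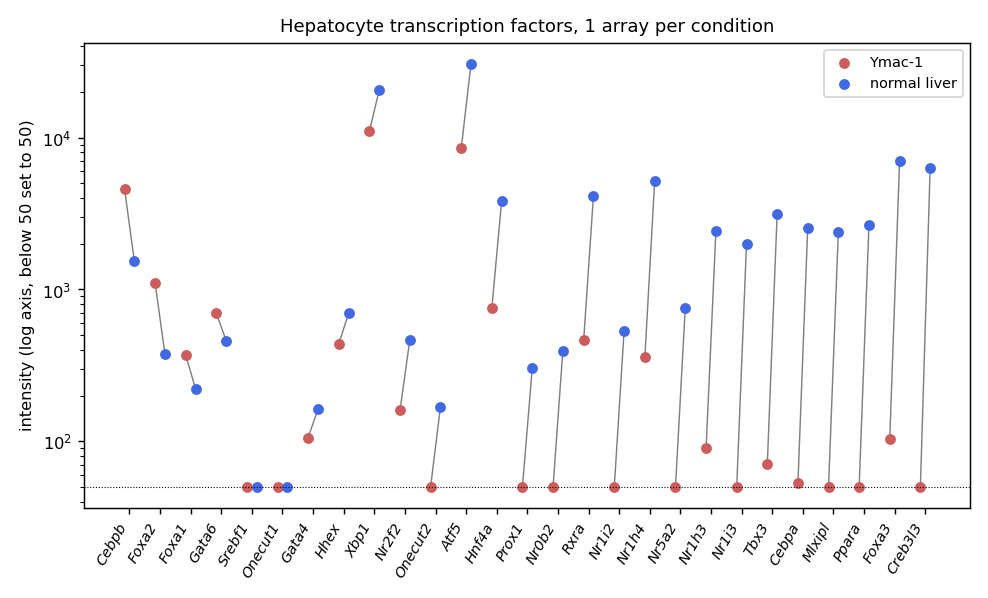
Intensity of 27 hepatocyte transcription factors on a log axis, Ymac-1 (red) left of normal liver (blue), 1 array each, ordered by the difference. Readings below 50 are drawn at the dotted floor. Cebpb, Foxa2, Foxa1 and Gata6 have the red point above the blue one, Gata6 only as deposited and not after quantile normalization, and 11 factors have the red point at the floor.

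On the other side stood genes that read at the floor in normal liver and brightly in Ymac-1 cells. The 10 brightest of these were Ccl2, Asns, Emp1, Sprr1a, Fbln2, Ankrd1, Fads3, Havcr1, Bex3 and S100a11. Ccl2, the chemokine that attracts monocytes, read 27797 in Ymac-1 cells and 25.7 in normal liver (at least 556-fold higher). Asns, asparagine synthetase, read 18739.9 in Ymac-1 cells and 24.0 in normal liver, and Ankrd1, a target of the YAP coactivator, read 13168 in Ymac-1 cells and 2.97 in normal liver. Sprr1a, a cornified envelope protein of squamous epithelium, read 15682 in Ymac-1 cells and 9.19 in normal liver, and Havcr1, the kidney injury molecule KIM-1, read 10719.5 in Ymac-1 cells and 0.0697 in normal liver. Emp1, a membrane protein of epithelial cells, read 18560.4 in Ymac-1 cells and 34.2 in normal liver, and Fbln2, a protein of the extracellular matrix, read 13921 in Ymac-1 cells and 18.1 in normal liver. These genes belong to different tissues and programs. Fads3 read 11084 in Ymac-1 cells and 12.6 in normal liver, but its other probe gave a smaller difference of 2.86.

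Among genes above the floor on both arrays, the 10 largest differences lay between 6.63 and 8.29. Anxa3, a calcium-dependent membrane protein, had the largest at 16254 in Ymac-1 cells against 51.8 in normal liver (314-fold higher). Cd24a, a surface protein of progenitor cells, read 15843 in Ymac-1 cells and 69.9 in normal liver, and Cav1, the scaffold of caveolae, read 20466 in Ymac-1 cells and 145 in normal liver. Pmp22 and Basp1, membrane proteins best known from nerve, read 26864 and 24333 in Ymac-1 cells, against 156 and 161 in normal liver. The remaining members, Tuba1a, Anxa1, Krt7, S100a6 and Cep55, belong to the cytoskeleton, annexin, keratin, S100 and cytokinesis genes. The cytoskeleton, S100 and annexin list had 26 of 30 members higher (23.3% of all genes were higher) and 0 lower, with a median of 2.46. After quantile normalization 21 of 30 were higher, and 18 after centring on the median. This list holds Anxa3 and Tuba1a and was chosen with earlier results of these data known, so it is no separate check of them. S100a6, a calcium-binding protein, read 53889.8 in Ymac-1 cells and 539.6 in normal liver (99.9-fold higher), and Tuba1a, an alpha tubulin, read 8825 in Ymac-1 cells and 63.2 in normal liver. The list supplied 2.30% of the signal in Ymac-1 cells and 0.362% in normal liver.

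Epithelial and mesenchymal genes were present side by side in Ymac-1 cells. Of 32 mesenchymal and EMT genes, 17 were higher and 1 was lower, where 23.3% of all genes were higher and 9.41% lower. The list median was 1.68, and 16 members were higher after quantile normalization. Vimentin (Vim) read 37270.3 in Ymac-1 cells and 812 in normal liver (5.52, 45.9-fold higher), and galectin-1 (Lgals1) read 64393 in Ymac-1 cells and 1078 in normal liver, near the top of the scale. N-cadherin (Cdh2), which hepatocytes also carry, read 6257 in Ymac-1 cells and 794 in normal liver (7.88-fold higher). Of the factors of the EMT program, Snai1 read 368 in Ymac-1 cells and 374 in normal liver and Snai2 read 330.4 in Ymac-1 cells and 286 in normal liver, both within the threshold, and Zeb1 read 769 in Ymac-1 cells and 335 in normal liver (1.20, or 0.45 after quantile normalization). Acta2, smooth muscle actin, was at the floor in Ymac-1 cells (-6.96 against 64.4 in normal liver), and Tgfbi, a matrix protein, was the lower member at 15.7 in Ymac-1 cells against 1076 in normal liver. Fibronectin (Fn1), which hepatocytes secrete, read 2698 in Ymac-1 cells and 4203 in normal liver.

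Several keratins were also higher in Ymac-1 cells. Krt8, the keratin of simple epithelia, read 28088 in Ymac-1 cells and 1859 in normal liver (3.92), Krt19 was at least 158-fold higher and Krt7 was 101-fold higher. Krt20, a keratin of the gut lining, read 1279.8 in Ymac-1 cells and 11.6 in normal liver. E-cadherin (Cdh1) read 217 in Ymac-1 cells and 48.2 in normal liver, a liver reading just under the floor for a protein of hepatocyte junctions, so its direction rests on a dim probe. Over all genes 23.3% were higher and 9.41% lower. Of 30 epithelial genes, 11 were higher, 11 were within the threshold and 8 were lower, with a median of 0. The lower ones were Gjb1, Gjb2, Cldn1, Krt23, Tjp3, Dsc2, Marveld2 and Esrp2. Gjb1, the main gap junction protein of hepatocytes, read 7.04 in Ymac-1 cells and 4025 in normal liver, Gjb2, its partner, read 301 in Ymac-1 cells and 3939 in normal liver, and Cldn1, of tight junctions, read 121 in Ymac-1 cells and 1477 in normal liver. Differences over the list ran from -6.33 for Gjb1 to 7.30 for Krt19.

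Extracellular matrix genes had 12 of 33 members higher, 4 lower and a median of 0.29, or 0 after quantile normalization, where 23.3% of all genes were higher and 9.41% lower. Timp1, an inhibitor of matrix proteases, read 4932 in Ymac-1 cells and 14.1 in normal liver (at least 98.6-fold higher), and Plat and Plaur, an activator of plasminogen and a receptor for the other activator, read 1822 and 1423 in Ymac-1 cells, against 57.0 and 10.4 in normal liver. Sdc2, a proteoglycan of the cell surface, read 909 in Ymac-1 cells and 7581 in normal liver and was lower. The line thus read high for genes of plasminogen activation while plasminogen itself was at the floor.

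**Figure D5:**
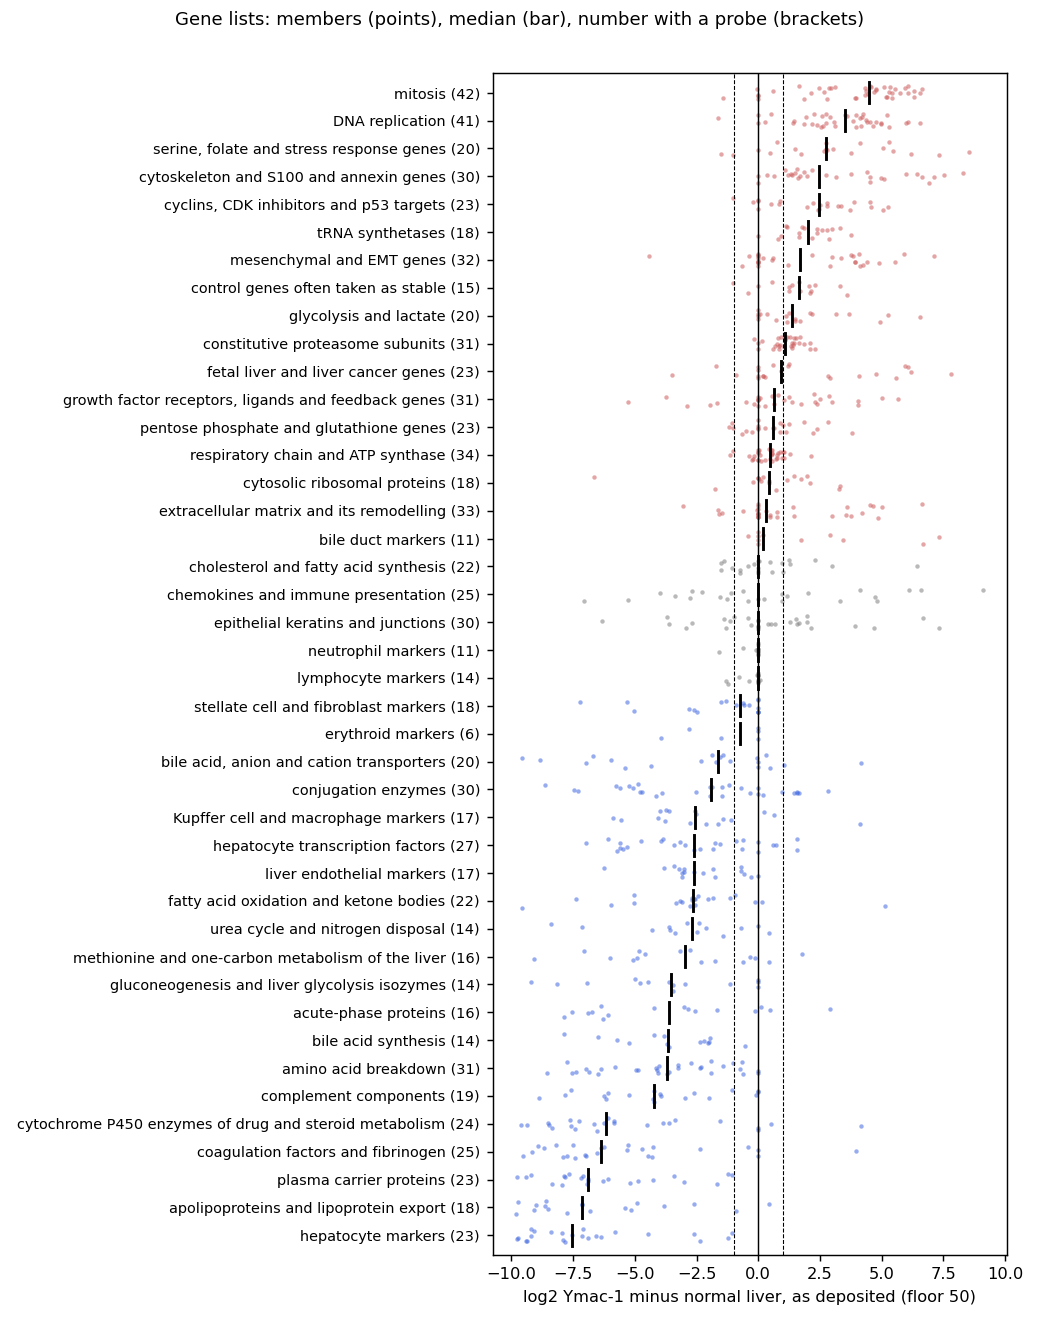
Log2 Ymac-1 minus normal liver for every member with a probe (points) of 42 gene lists, ordered by the median (black bar), with the number of such members in brackets. Dashed lines mark a difference of 1 in either direction, and genes at the floor on both arrays lie at 0. Mitosis and DNA replication have the highest medians, 4.48 and 3.50, and hepatocyte markers and apolipoproteins the lowest, -7.55 and -7.13.

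Cell cycle genes had the highest medians of the 42 lists. Of 42 mitosis genes, 36 were higher and 1 was lower, with a median of 4.48, or 4.16 after quantile normalization, against 23.3% of all genes higher. The liver reading was at the floor for 33 of them. Of 41 DNA replication genes, 36 were higher and 1 was lower, with a median of 3.50, and 21 were at the floor in normal liver. Top2a, the topoisomerase of dividing cells, read 4649 in Ymac-1 cells and 11 in normal liver (at least 93.0-fold higher), Mcm5, of the replicative helicase, read 3345 in Ymac-1 cells and 26.7 in normal liver, and Rrm2, of ribonucleotide reductase, read 3188 in Ymac-1 cells and 39.9 in normal liver. Kif23 and Cep55, both of cytokinesis, read 3961 and 13528 in Ymac-1 cells, against 18.2 and 137 in normal liver. Survivin (Birc5), of the chromosomal passenger complex, read 3306 in Ymac-1 cells and 24.5 in normal liver, but its 3 probes ran between 0 and 6.18, so the size of its difference depends on the probe. The 2 lower members were Mcm10, with 1092 in Ymac-1 cells and 3381 in normal liver, and Cenpf, with 29.7 in Ymac-1 cells and 136 in normal liver. Each rests on 1 probe, and how specific these probes are was not tested. Mitosis genes made up 0.611% of the signal in Ymac-1 cells and 0.0335% in normal liver.

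Many genes of mitosis carry the CHR element and the CCAAT box in their promoters. Promoters are shown for 3 members with a large difference, each with 1 entry that holds both. The choice did not draw on every chromosome, so members with a larger difference may be absent. Each sequence runs from 250 bases before to 50 bases after the annotated start, from RefSeq on GRCm38.p6. A promoter entry was found for 14953 of the 19084 genes compared, and the table holds 32851 promoters. Capitals mark TTTGAA and CCAAT or their reverse complements.
Top2a (chr11:99024140-99024439, minus strand): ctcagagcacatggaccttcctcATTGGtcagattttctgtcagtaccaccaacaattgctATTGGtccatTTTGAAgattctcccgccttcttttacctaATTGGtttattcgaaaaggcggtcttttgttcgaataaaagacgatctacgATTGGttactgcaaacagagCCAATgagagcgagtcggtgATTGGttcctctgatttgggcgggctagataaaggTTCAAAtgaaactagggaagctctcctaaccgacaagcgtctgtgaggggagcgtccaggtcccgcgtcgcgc
Kif23 (chr9:61946750-61947049, minus strand): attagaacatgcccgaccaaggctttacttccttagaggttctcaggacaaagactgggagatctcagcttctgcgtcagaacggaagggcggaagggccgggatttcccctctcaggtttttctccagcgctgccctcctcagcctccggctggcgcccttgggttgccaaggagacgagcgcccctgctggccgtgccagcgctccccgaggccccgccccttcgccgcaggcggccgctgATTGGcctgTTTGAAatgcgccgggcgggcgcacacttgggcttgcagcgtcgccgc
Hmmr (chr11:40733388-40733687, minus strand): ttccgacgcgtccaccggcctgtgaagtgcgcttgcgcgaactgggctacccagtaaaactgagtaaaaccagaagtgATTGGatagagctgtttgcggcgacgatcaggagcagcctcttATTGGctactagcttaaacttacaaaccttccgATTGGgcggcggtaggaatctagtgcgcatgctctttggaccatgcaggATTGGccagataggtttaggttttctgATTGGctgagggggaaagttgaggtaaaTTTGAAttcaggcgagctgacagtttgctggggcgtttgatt

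Hmmr, a receptor for hyaluronan that acts at the spindle, read 2654 in Ymac-1 cells and 6.01 in normal liver (at least 53.1-fold higher). Matches were counted per gene with a promoter entry, and a gene counted if any of its entries matched. TTTGAA on either strand was found for 24 of 35 mitosis genes (68.6%), 6 of 33 replication genes (18.2%) and 16.4% of all genes compared. Counted per promoter, a different unit, it was in 17.9% of all promoters in the table. CCAAT was found for 26 of 35 mitosis genes (74.3%), 21 of 33 replication genes (63.6%) and 41.8% of all genes compared. Counted per promoter, it was in 37.4% of all promoters in the table. A match of letters is a description, and a match of one can share at most its end letter with a match of the other.

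Cyclins, CDK inhibitors and p53 targets were higher in 15 of 23 and lower in 1, with a median of 2.45. The shares over all genes were 23.3% higher and 9.41% lower. Ccnd2, a cyclin of the G1 phase, read 3993 in Ymac-1 cells and 167 in normal liver, and Myc, a driver of growth, read 1664 in Ymac-1 cells and 42.7 in normal liver (at least 33.3-fold higher). The inhibitor Cdkn2b was high as well, at 1889 in Ymac-1 cells against 14.0 in normal liver. Ccne2, the lower member, read 109 in Ymac-1 cells and 220.2 in normal liver (-1.01), but its other probe gave 3.18, so the sign rests on the choice of probe.

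Growth metabolism was higher in several branches. Of 20 genes of serine and folate synthesis and the amino acid stress response, 15 were higher and 2 were lower, with a median of 2.76. Among all genes 23.3% were higher and 9.41% lower. Psat1 and Psph, enzymes of serine synthesis, read 7965 and 3598 in Ymac-1 cells, against 9.87 and 32.4 in normal liver. Asns belongs to the same response. Of 18 tRNA synthetases, 15 were higher and 0 lower, with a median of 2.01, and Rars, which charges arginine, read 5502 in Ymac-1 cells and 412 in normal liver. The 2 lower members of the first list were the cytosolic folate enzymes Shmt1, at 585 in Ymac-1 cells against 1648 in normal liver, and Mthfd1, at 875 in Ymac-1 cells against 1789 in normal liver.

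Glycolysis genes were higher in 13 of 20 and lower in 0, with a median of 1.37 that fell to 0.95 after quantile normalization. The isozymes of proliferating cells led. Pkm, the pyruvate kinase outside the liver, read 29112 in Ymac-1 cells and 309 in normal liver (94.2-fold higher), Hk2, an inducible hexokinase, read 6077 in Ymac-1 cells and 161 in normal liver, and Slc2a1, the widespread glucose transporter, read 1799 in Ymac-1 cells and 59.8 in normal liver. Pklr, the liver form of pyruvate kinase, read 499 in Ymac-1 cells and 506 in normal liver, within the threshold, and Ldha, lactate dehydrogenase, read 20464 in Ymac-1 cells and 16119 in normal liver. Pyruvate kinase transcripts thus differed by isozyme, and the difference of the liver form was -0.02 as deposited and -0.73 after quantile normalization. Of 23 pentose phosphate and glutathione genes, 7 were higher, 13 within the threshold and 3 lower, where 23.3% of all genes were higher and 9.41% lower, and after quantile normalization 5 were higher and 5 lower. Pgd, of the oxidative branch, read 1639 in Ymac-1 cells and 118 in normal liver (13.9-fold higher). Gpx1, glutathione peroxidase, read 8648 in Ymac-1 cells and 18224 in normal liver and was lower. Of 22 genes of cholesterol and fatty acid synthesis, 5 were higher and 4 were lower, a share of higher genes near the background, and 3 were higher and 7 lower after quantile normalization. Scd2, a desaturase found mainly outside the adult liver, read 28635 in Ymac-1 cells and 336 in normal liver (85.3-fold higher).

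Chemokine and immune genes had no common direction. Of 25, 9 were higher and 10 lower, with a median of 0, where 23.3% of all genes were higher and 9.41% lower. Ccl2, Cxcl5 and Il33, secreted signals of inflammation, were high, and Cxcl5 and Il33 read 4779 and 3401 in Ymac-1 cells, against 8.56 and 30.8 in normal liver. Cxcl12, a chemokine of stroma and endothelium, read 268 in Ymac-1 cells and 10356 in normal liver, and H2-Aa, of class II presentation, read 8.51 in Ymac-1 cells and 6610.2 in normal liver. Psmb9, of the immunoproteasome, was at the floor in Ymac-1 cells (-0.779) and read 780 in normal liver. The lower members include genes of immune and endothelial cells, whose marker lists were also low in the line, with 14 of 17 macrophage and 12 of 17 endothelial markers lower. Their part in these differences was not tested.

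Of 31 growth factor receptors, ligands and feedback genes, 14 were higher and 5 were lower, where 23.3% of all genes were higher and 9.41% lower. Hbegf and Pdgfb, ligands for the EGF and PDGF receptors, read 2549 and 1591 in Ymac-1 cells, against 34.1 and 9.98 in normal liver. Fosl1, an AP-1 factor induced by growth signals, read 821 in Ymac-1 cells and 21.4 in normal liver. The 5 lower members were Igf1, Klb, Insr, Fgfr4 and Ghr, which act in endocrine signalling of the liver. Igf1, the growth hormone-dependent factor that liver secretes, read 38.5 in Ymac-1 cells and 1919.8 in normal liver, although its other probe gave -0.87, the insulin receptor (Insr) read 631 in Ymac-1 cells and 4609 in normal liver, and Klb, the co-receptor for FGF hormones, read 62.4 in Ymac-1 cells and 835 in normal liver.

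Genes used to mark fetal liver, liver cancer and stem cells were mixed. Of 23 such genes, 11 were higher and 2 were lower, where 23.3% of all genes were higher and 9.41% lower. The median of the list was 0.91, and 13 members were at the floor in normal liver. Alpha-fetoprotein (Afp), the fetal counterpart of albumin, read 75.0 in Ymac-1 cells and 11.3 in normal liver, and glypican-3 (Gpc3) read 94.1 in Ymac-1 cells and 45.9 in normal liver, neither past the threshold. Cd24a, Tspan8 and Birc5 were the high members, and Tspan8, a tetraspanin, read 3665 in Ymac-1 cells and 24.7 in normal liver. Among markers of stem-like cells, Cd44 read 371 in Ymac-1 cells and 26.3 in normal liver (at least 7.42-fold higher), and Prom1, which encodes CD133, read 117 in Ymac-1 cells and 101 in normal liver (0.21, 4 probes between 0 and 2.23). Thy1 and Anpep, which encode CD90 and CD13, were at the floor in Ymac-1 cells, with 8.36 and 11.9, against 92.6 and 164 in normal liver. Hspa5, the chaperone GRP78, was lower at 2243 in Ymac-1 cells against 5117 in normal liver (-1.19). Nanog and Sox2 were at the floor on both arrays. Pou5f1, the pluripotency factor Oct4, was at the floor in Ymac-1 cells (9.05) but read 1346 in normal liver, on 1 probe whose specificity was not tested. These markers thus had no common direction in the line.

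Genes that most cells use serve as a check of the scale. Of 15 control genes often taken as stable, 11 were higher and 1 was lower, with a median of 1.65, or 1.27 after quantile normalization and 0.83 after centring on the median. As deposited, 23.3% of all genes were higher and 9.41% lower, or 40.9% and 16.5% of those above the floor on at least 1 of the 2 arrays. The share of all genes that were higher was 16.1% after quantile normalization and 14.4% after centring on the median. Constitutive proteasome subunits had a median of 1.09 with 19 of 31 higher as deposited, 10 after quantile normalization and 4 after centring on the median. The 34 respiratory chain genes had a median of 0.49 with 27 within the threshold, and this median was -0.27 after centring on the median. The 18 ribosomal protein genes had a median of 0.44, or 0.060 after centring, but 10 of them were at the floor in normal liver and 3 in Ymac-1 cells. Rpl8 read -3.17 in Ymac-1 cells and 5092 in normal liver, for a protein that every cell needs. A reading at the floor on this array therefore does not show that a transcript is absent.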

How the data were processed

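RNA of Ymac-1 cells and of normal liver was measured on 1 array each, and the labels name both samples. The authors amplified total RNA into Cy5-labelled antisense RNA, and the deposited values are background-subtracted intensities on a linear scale for 26423 probes per array. Neither the scanner nor how background and scale were set is stated in the sources used here. Per the paper, the liver and HCC profiles were first part of another series, and the arrays read here carry those names in the one deposited table. Gene names came from the platform annotation, in which 21876 probes had 1 symbol, 0 had several and 4547 had none. Probes with no name did not enter counts of genes. By Entrez ID, 21825 probes matched the gene table of GRCm38.p6, and 0 symbols were updated. A gene took the probe that was brightest by mean log2 over the 3 arrays, 2424 genes had several probes, and Gapdh was not analysed here. Some further genes are not reported here.

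Readings below 50 were set to 50, and a gene was called where its log2 difference reached 1 in size. The authors' P value filter was not used, since 1 array per condition gives none. The members of 42 gene lists, with 889 of 1027 genes found, and all tests were chosen with earlier results of these data known. The genes named in the text were those the paper names, the 10 extremes of each side above the floor and of each side with 1 array at the floor, the 3 highest and lowest members of each list, all hepatocyte transcription factors, the kept liver function genes and the 15 brightest reduced ones. Cd81, Selenop, Hmmr and Zeb1, and genes given to complete a count, were named after their values were seen. Tested on simulated data for 19084 genes, the calling code found 199 of 200 planted genes and 0 of 18884 others at an assumed SD of 0.15, which checks the code and not the error of these arrays. Alternatives were other scalings, floors of 20 and 100, a threshold of 2, other probe rules, a filter on dim genes and a liver reading from 5000. The software was Python 3.11.15 (numpy 2.4.6, pandas 2.3.3), with figures drawn in matplotlib 3.10.9.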

Additional observations from a re-analysis of the deposited data

How the results depend on the processing

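The number of genes higher in Ymac-1 cells was 4447 in the main setting, 2749 with each array centred on the median of its positive probes and 2171 at a threshold of 2. The number of lower genes was 1795 in the main setting, 3115 after centring on the median, 2766 after scaling to the upper quartile and 991 at a threshold of 2. Among genes bright in liver, 529 were reduced in the main setting, 885 after quantile normalization over the 3 arrays, 839 after quantile normalization over Ymac-1 and normal liver alone, 1076 after centring on the median, 903 after scaling to the upper quartile and 320 at a threshold of 2. Counting genes from 5000 in liver, which takes fewer genes by construction, left 190 kept, 169 reduced and 112 at the floor. The median difference over genes above the floor on both arrays was 0.72 in the main setting, 0.14 and 0.16 after the 2 quantile normalizations, 0.13 after upper quartile scaling and, reversed in sign, -0.022 after centring on the median, where the genes above the floor were found again under each scaling. With floors of 20 and 100, the mean of a gene's probes, the probe brightest on the 2 arrays and a filter on dim genes, these 6 results stayed within 1.5 times or within their margin. Ccne2 was the named gene that reversed, with 1.08 for the mean of its probes. Of 1051 genes with several probes above the floor, 32 had probes called in opposite directions, and the median range between probes was 0.94. No paired analysis was possible because each condition has 1 array. Signal near the floor limits the dim genes, since 8208 of 19084 genes were at or under it on both arrays. The causes of these shifts were not tested.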

Other observations

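Differences were also read by chromosome, a grouping chosen after the data were seen, over genes above the floor on both arrays. The median log2 Ymac-1 minus normal liver was -0.00073 for 271 genes on chromosome 14 and 0.17 for 252 genes on chromosome 12, against 0.72 over all 7699 genes. It was 1.17 for 196 genes on chromosome 18, 1.15 for 298 genes on chromosome 19 and 1.00 for 506 genes on chromosome 5, and it lay between 0.53 and 0.88 for the other chromosomes. After quantile normalization the medians were -0.59 for chromosome 14, -0.45 for chromosome 12, 0.45 for chromosome 18, 0.55 for chromosome 19 and 0.32 for chromosome 5. HCC minus normal liver, which shares the liver array, had medians of 0.68 on chromosome 14, 0.67 on chromosome 12, 0.77 on chromosome 18, 0.57 on chromosome 19 and 0.72 on chromosome 5.

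Xist, the RNA of the inactive X chromosome, read 76.7 in Ymac-1 cells and 464 in normal liver (-2.60, 6.06-fold lower), and 499.7 on the HCC array. The Y-linked genes Eif2s3y, Kdm5d and Uty were at the floor on all 3 arrays, with 2.33, 3.56 and 10.5 in Ymac-1 cells, against 2.90, 4.42 and 5.56 in normal liver. The sources used here do not state the sex of the mouse that gave rise to the line.

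Cdkn2a, which encodes inhibitors that hold the cell cycle, read 267 in Ymac-1 cells and 5.97 in normal liver (at least 5.35-fold higher), with its other probe at 0.84, and its neighbour Cdkn2b read 1889 in Ymac-1 cells and 14.0 in normal liver. Of 4547 probes without a gene name, 12 read above 1000 in Ymac-1 cells and at or under the floor in normal liver, and 18 did the reverse.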
